A study of Mus musculus with 6 samples.

Results

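The G2/M and mitosis genes are a list of 30 genes of mitotic cyclins and kinases, kinesins, and spindle and checkpoint proteins. They were found on the arrays as the probe sets annotated with the symbol of 1 listed gene and of no other gene. This gave 48 probe sets for 28 of the 30 genes, out of 20380 probe sets with 1 symbol for 12393 genes. Ccnb1 and Cdca8 were not analysed here, and 1 probe set that names Foxm1 together with other genes was left out. The brightest probe set, with the highest mean log2(signal + 16) over the 6 arrays, stands for each gene. All 28 of these passed the filter on dim signals, and 7 dimmer member probe sets did not, which left 41.

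The arrays measured RNA from 6 whole lung metastases of mammary tumours in mice of the FVB strain, 3 labelled Myc E2F2 KO (E2F2 knockout) and 3 labelled Myc E2F3 Het (E2F3 +/-). Both groups carry MMTV-Myc, a transgene in which a mouse mammary tumour virus promoter, active mainly in mammary epithelium, drives the Myc oncogene. The metastases were collected at endpoint and flash frozen, and the ages of the mice are not given in the sources used here. The Het titles carry 1 number in common, and each KO title carries a number of its own. Het replicates 1, 2 and 3 are the metastases numbered 2, 1 and 3 in their titles. If that common number marks 1 mouse, genotype and mouse of origin cannot be told apart. Tumours with normal E2F2 and E2F3 were not analysed here.

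Cells make the transcripts of these genes mainly in late S phase, G2 and mitosis, so their level in a tissue is widely read as a measure of how many cells are dividing. Cyclin B with Cdk1 drives entry into mitosis, the spindle checkpoint holds the cell until every chromosome is attached, and the anaphase-promoting complex then has the cyclins destroyed. Their promoters are held down in resting cells by the DREAM complex and are switched on by B-Myb and FoxM1, acting through an element called CHR and through CCAAT boxes bound by NF-Y. E2F factors act mostly on the earlier genes of DNA replication, and also on the genes of B-Myb and of several mitotic regulators.

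The promoters of 7 members are shown because their values followed different patterns over the arrays. Kif11, Ccnb2, Cdk1 and Mki67 had their lowest signal on 1 KO array, whereas Top2a, Birc5 and Cenpe did not. Each run holds 170 bases before and 30 after the transcript start in RefSeq (GRCm38.p6), written along the gene's own strand. Capitals mark CHR matches (TTTGAA) and CCAAT matches on either strand.
Kif11: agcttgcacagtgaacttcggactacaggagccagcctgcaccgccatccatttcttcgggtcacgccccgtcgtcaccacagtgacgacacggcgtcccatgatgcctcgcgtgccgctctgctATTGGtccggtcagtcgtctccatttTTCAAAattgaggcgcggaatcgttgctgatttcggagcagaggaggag
Ccnb2: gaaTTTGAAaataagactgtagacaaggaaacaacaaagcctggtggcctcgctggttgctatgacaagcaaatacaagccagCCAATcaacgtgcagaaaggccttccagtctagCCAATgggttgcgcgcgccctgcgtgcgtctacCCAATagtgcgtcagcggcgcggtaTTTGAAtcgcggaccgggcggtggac
Cdk1: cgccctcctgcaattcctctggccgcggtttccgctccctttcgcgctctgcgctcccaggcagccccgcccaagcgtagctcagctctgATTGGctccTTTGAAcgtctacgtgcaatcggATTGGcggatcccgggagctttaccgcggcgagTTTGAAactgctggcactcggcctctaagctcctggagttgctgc
Mki67: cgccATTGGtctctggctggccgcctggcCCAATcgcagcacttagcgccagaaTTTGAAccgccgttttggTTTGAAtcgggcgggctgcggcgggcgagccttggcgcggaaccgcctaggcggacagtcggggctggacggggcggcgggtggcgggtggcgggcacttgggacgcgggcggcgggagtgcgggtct
Top2a: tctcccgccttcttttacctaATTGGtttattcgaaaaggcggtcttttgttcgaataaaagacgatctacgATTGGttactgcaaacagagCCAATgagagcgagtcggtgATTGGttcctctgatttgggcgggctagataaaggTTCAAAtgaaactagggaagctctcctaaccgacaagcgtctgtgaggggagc
Birc5: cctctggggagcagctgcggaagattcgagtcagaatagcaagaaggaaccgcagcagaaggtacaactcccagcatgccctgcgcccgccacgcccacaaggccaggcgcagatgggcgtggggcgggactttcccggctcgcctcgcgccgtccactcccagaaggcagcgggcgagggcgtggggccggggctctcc
Cenpe: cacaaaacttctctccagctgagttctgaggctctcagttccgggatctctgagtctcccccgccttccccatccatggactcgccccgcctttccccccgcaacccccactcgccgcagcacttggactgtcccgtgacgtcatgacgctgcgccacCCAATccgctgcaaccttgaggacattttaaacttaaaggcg
These lie at chr19:37376212-37376411 (plus strand), chr9:70421525-70421724 (minus), chr10:69352883-69353082 (minus), chr7:135716350-135716549 (minus), chr11:99024160-99024359 (minus), chr11:117849067-117849266 (plus) and chr3:135212393-135212592 (plus).

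Promoter windows of 300 bases, from 250 before to 50 after the start, were matched for 25 of the 30 listed genes, Ccnb1 and Cdca8 among them. CHR was found in 19 of the 25 (76%), against 18.1% of 27025 genes with a window and 11.7% of the 6486 of these that were kept on the arrays. CCAAT was found in 20 (80%), against 37.9% and 38.6%, and both motifs in 17 (68%), against 7.12% and 4.86%. At least 2 CCAAT matches were held by 14 members (56%), against 12.2% and 15.6%. The window of Ccnb2 held 2 CHR and 3 CCAAT matches, that of Cdk1 also 2 and 3, and that of Kif11 1 of each. Top2a, which varied least over the arrays, held 2 CHR and 6 CCAAT matches. Cenpe held 1 CCAAT and no CHR match, and Birc5, Mad2l1 and Nusap1 held neither. A CHR and a CCAAT match overlapped in 1 member. Only these letters were searched, in the first listed window of each gene, and a match is not a measured site. Whether the patterns on the arrays go with the motifs was not tested.

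All arrays had been scaled to the same trimmed mean signal of 500.2. Of markers fixed for other cell types, the epithelial gene Epcam had signals of 4158 to 7450 and the alveolar surfactant gene Sftpc 5981 to 18600, so both were measured on every array. None of the 11 lymphocyte markers with a probe set passed the filter, and the T cell gene Cd3e was at 7.02 to 75.8. Het replicate 1 stood apart in 2 of 3 control ratios of RNA quality, with a 3' to 5' signal ratio of 2.37 for actin, against 1.48 to 1.73 on the other arrays, and of 11.8 for the transferrin receptor, against 3.25 to 5.15. For Gapdh it was 0.932, against 0.752 to 0.897.

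The clearest pattern among the members was between metastases and not between genotypes. KO replicate 1 had the lowest signal of the 6 arrays for 21 of the 28 genes (75%), whereas 23.5% of all 7957 genes kept, with 1 probe set each, were lowest on that array. Of the other 7 members, 4 were lowest on Het replicate 3 (9.83% of all genes), 2 on Het replicate 2 (17.7%), 1 on KO replicate 2 (15.9%), and none on KO replicate 3 (23%) or Het replicate 1 (10.1%). Relative to each gene's mean over the 6 arrays, the median member lay at -0.29 on the log2 scale in KO replicate 1, at 0.10 and 0.14 in KO replicates 2 and 3, and at 0.03, 0.07 and 0.02 in Het replicates 1, 2 and 3. The median over all genes stayed between -0.03 and 0.05. The median member was 0.35 lower in KO replicate 1 than the mean of the other 5 arrays (a log2 difference of -0.35), against -0.03 for all genes. It lay at -0.44 against the mean of the other 2 KO metastases, and 25 of 28 members were below both of them, as 35% of all genes were. No test can be made of 1 metastasis, so these are descriptions. The number lowest on KO replicate 1 had to stay at 21 without Het replicate 1 (25.7% of all genes), since no member was lowest there. Leaving out any array but KO replicate 1 can only keep or raise this number. It ran from 18, with the median over each gene's probe sets, to 23 over the other settings tried, which were chosen after seeing the data.

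**Figure D1:**
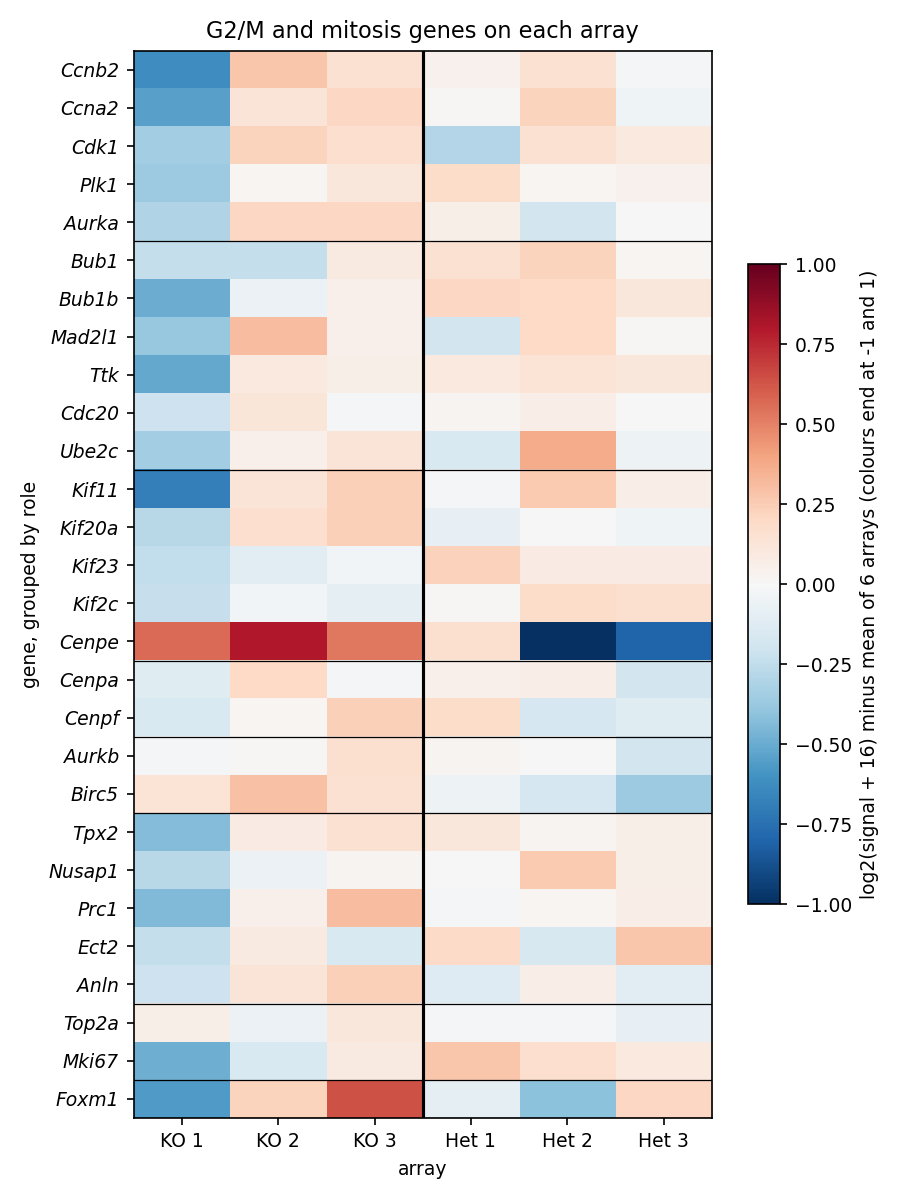
Log2(signal + 16) of each of 28 members (rows, grouped by role) on each of the 6 arrays (columns), relative to the gene's mean over the arrays. Blue is below and red above that mean. The column of KO 1 is blue for most rows, with Cenpe (0.57), Birc5 (0.14) and Top2a (0.06) as the members above their mean there.

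Lists of lung tissue markers had their highest medians in that same metastasis, but single markers differed. Sftpc was highest in KO replicate 2 (18600, against 18130 in KO replicate 1). Airway markers, 4 of 5 kept, had medians of 0.99, -1.24 and -0.39 in KO replicates 1, 2 and 3 and of 0.00 to 0.28 in Het metastases. All 4 were lowest in KO replicate 2. Scgb1a1 was highest in Het replicate 1 (17210) and Cyp2f2 in Het replicate 2 (2677). Alveolar markers, 10 of 13 kept, had a median of 1.24 in KO replicate 1, 0.39 and -0.88 in KO replicates 2 and 3, and 0.37, -0.56 and -0.40 in Het replicates 1, 2 and 3. Their summed signal was 63887 in KO replicate 1, against 13644 to 38327 on the other arrays. Endothelial markers, 12 of 12 kept, lay at 0.75 in KO replicate 1 and between -0.54 and 0.34 elsewhere. KO replicate 3, with the lowest alveolar (-0.88) and endothelial (-0.54) medians, had the highest median member (0.14). KO replicate 2 and Het replicate 1 had alveolar medians of 0.39 and 0.37 and median members at 0.10 and 0.03. Het replicates 2 and 3 had alveolar medians of -0.56 and -0.40 and median members at 0.07 and 0.02. Epithelial markers, 7 of 7 kept, had a median of 0.14 in KO replicate 1 and of -0.09 to 0.04 elsewhere. Their summed signal of 47812 there, against 39924 to 46190, owed its rank to Krt18 (15160), and Krt19 was lowest in KO replicate 1 (3899). Fibroblast and matrix markers, 9 of 10 kept, had medians of 0.50, 0.38 and -0.01 in KO and -0.43, -0.27 and -0.25 in Het metastases, and the collagen gene Col1a1 had 413 to 617 in Het metastases, against 885 to 1202 in the KO group. Every KO array was above every Het array for 6 of the 9 (5.83% of all genes). The groups overlapped for Mfap5 (0.37), Pdgfra (-0.30) and Pdgfrb (0.03). None of the 9 passed the test (lowest adjusted p by limma 0.34 when arrays were entered separately). Macrophage markers, 10 of 10 kept, were low in KO replicate 1 as the members were, with medians of -0.37, 0.35 and -0.46 in KO replicates 1, 2 and 3 and of 0.05 to 0.27 in Het metastases. Their summed signal did not show this (17352 in KO replicate 1, against 10047 to 19632), since Lyz2 was highest there (10410). Pecam1, of endothelium, was highest in KO replicate 1 (453), and Csf1r, of macrophages, in KO replicate 2 (1299). The part of tissue make-up in the low mitotic signals was not tested. In RNA from whole tissue, fewer dividing cells and less mitotic RNA per cell cannot be told apart.

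**Figure D2:**
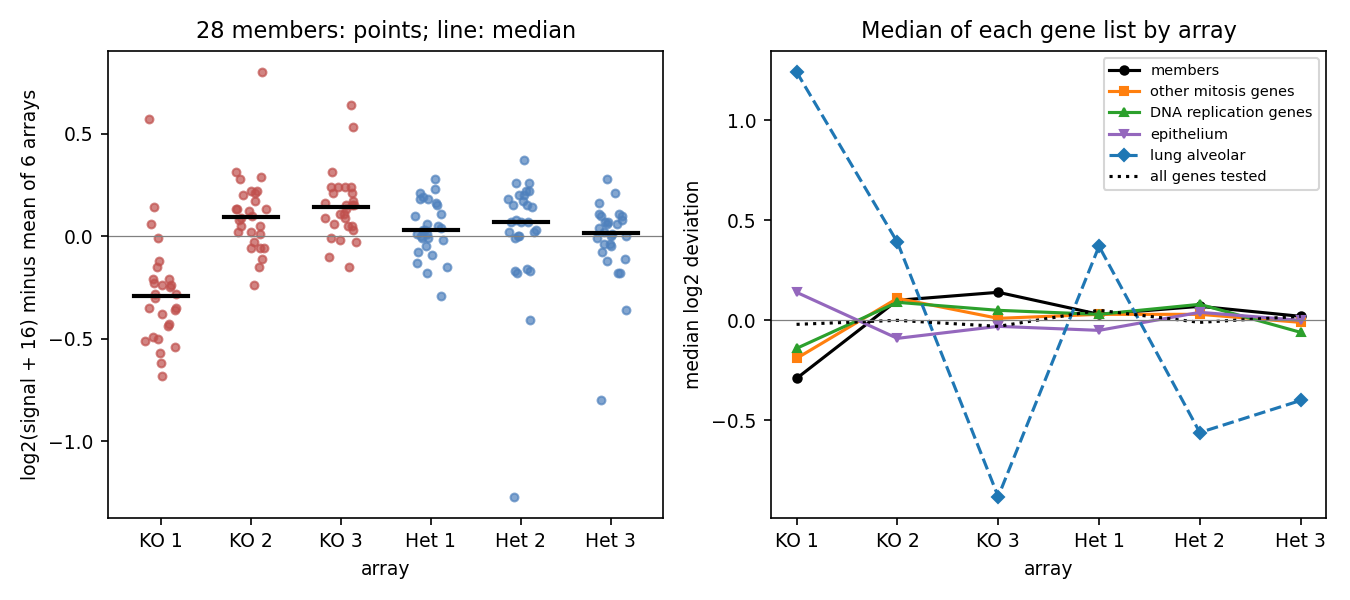
Left, each point is a member's log2(signal + 16) on an array relative to its mean over the 6 arrays, red for KO and blue for Het, and the black line is the median, at -0.29 in KO 1 and between 0.02 and 0.14 elsewhere. Right, medians of 5 gene lists and of all genes tested by array; DNA replication genes and other mitosis genes are also lowest in KO 1, where alveolar markers are highest (1.24).

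All 5 cyclins and entry kinases measured outside the passenger complex were lowest in KO replicate 1. Ccnb2, a mitotic cyclin that activates Cdk1, had signals of 797, 1501 and 1370 in KO replicates 1, 2 and 3 and of 1269, 1363 and 1218 in Het replicates 1, 2 and 3. The other 5 arrays lay close together, and KO replicate 1 was 0.74 below their mean on the log2 scale (-0.74). Ccna2, the cyclin of S phase and early mitosis, had 1290, 2070 and 2187 in KO and 1901, 2206 and 1835 in Het metastases, and its dimmer probe set showed the same low array (971, against 1389 to 1833). Cdk1, the mitotic kinase itself, had 1571, 2338 and 2266 in KO and 1641, 2221 and 2147 in Het metastases. For Cdk1 a Het array, replicate 1, was nearly as low as KO replicate 1, and the groups overlapped. Plk1 and Aurka, kinases of centrosome maturation and spindle assembly, lay 0.44 and 0.36 below the other arrays in KO replicate 1 (-0.44 and -0.36). The log2 differences of KO minus Het in these 5 genes ran from -0.15 for Plk1 to 0.08 for Aurka.

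Of the 6 genes of the spindle checkpoint and of anaphase, 5 were lowest in KO replicate 1. Ttk, the kinase at the head of the checkpoint, had signals of 319, 498 and 482 in KO and 496, 510 and 502 in Het metastases. Its 3 Het arrays spanned an SD of only 7.22, and KO replicate 1 alone stood clear of the rest. Bub1b, which encodes the checkpoint inhibitor BubR1, had 738, 1006 and 1087 in KO and 1223, 1208 and 1141 in Het metastases. Here every KO array was below every Het array, which gave -0.35 on the log2 scale (SE 0.30; adjusted p by limma 0.9999). The related kinase gene Bub1 had 736, 735 and 930 in KO and 970, 1017 and 885 in Het metastases, which overlapped, and its lowest array was KO replicate 2. Mad2l1, whose protein binds Cdc20 to block anaphase, was lowest in KO replicate 1 (1029) and highest in KO replicate 2 (1670), so the KO group spanned the Het range of 1185 to 1550. Cdc20, an activator of the anaphase-promoting complex, and Ube2c, the ubiquitin-conjugating enzyme of that complex, were at -0.25 and -0.42 in KO replicate 1 against the other 5 arrays. Differences between the genotype groups ran from -0.35 for Bub1b to -0.02 for Mad2l1 in this group of 6.

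The motor proteins split. Kif11, the Eg5 motor that pushes spindle poles apart, showed the widest gap of any member, at -0.82 in KO replicate 1 against the other 5 arrays. Its signals were 373, 666 and 719 in KO and 604, 729 and 639 in Het metastases. Kif20a and Kif23, motors of the central spindle and cytokinesis, had 446, 613 and 646, and 279, 310 and 327, in KO metastases. Kif20a had 512, 542 and 527 in Het metastases, within the span of the KO arrays, whereas Kif23 had 396, 355 and 355, above all 3 KO arrays. Kif2c, a microtubule depolymerase of the centromere, also had its KO arrays (571, 656 and 626) below its Het arrays (678, 762 and 754) on its brightest probe set. Its dimmest kept probe set separated the other way, with 157, 221 and 217 in KO above 88.0, 134 and 147 in Het metastases. Cenpe, the motor that carries chromosomes to the spindle equator, ran the other way. It had 193, 230 and 188 in KO and 143, 42.8 and 65.3 in Het metastases, so all 3 KO arrays were above all 3 Het arrays. KO minus Het was 1.27 on the log2 scale (SE 0.28; adjusted p by limma 0.9999), the largest value of the 28. Cenpe is dim and rests on 1 probe set, and its Het arrays differed among themselves by more than Het replicate 1 differed from the KO arrays. Its mean log2 value was 7.78 in KO and 6.51 in Het metastases, the latter under the filter minimum of 6.56. It thus passed the filter only through its KO arrays, and its difference is no support for a genotype effect.

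None of the 4 members of the centromere and of the chromosomal passenger complex had its lowest signal in KO replicate 1. Cenpa, the histone variant that marks centromeres, had 1075, 1345 and 1147 in KO and 1212, 1221 and 1024 in Het metastases, and Cenpf, a large kinetochore protein, had 603, 685 and 795 in KO and 766, 596 and 618 in Het metastases. The groups overlapped for both genes, and in both KO replicate 1 was the lowest KO array. The passenger complex corrects faulty attachments and guides cytokinesis, with Aurkb as its kinase and Birc5 (survivin) as a targeting subunit. Aurkb had 565, 577 and 640 in KO and 583, 569 and 501 in Het metastases, a narrow range of 0.34 on the log2 scale. Birc5 had 2483, 2759 and 2509 in KO and 2189, 2006 and 1759 in Het metastases. All 3 KO arrays were above all 3 Het arrays, and KO minus Het was 0.38 on the log2 scale (SE 0.19; adjusted p by limma 0.9999). Incenp, the scaffold of the same complex and not a member of the list, was lowest in KO replicate 1, at 1703 against 1912 to 2534.

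**Figure D3:**
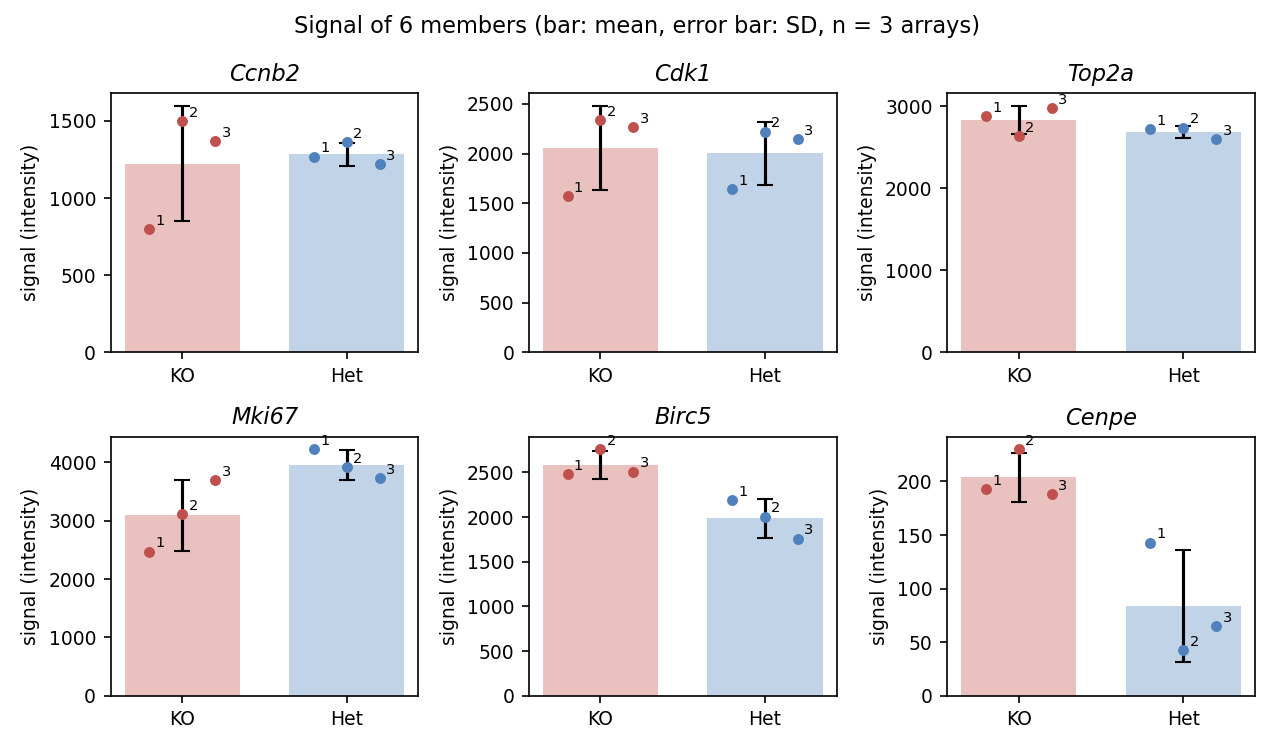
Array signal of 6 members in KO (red) and Het (blue) metastases, with each array as a numbered point, the bar at the mean and the error bar showing the SD of 3 arrays. Ccnb2 and Mki67 are lowest in KO 1, Top2a varies little, and Birc5 and Cenpe have all KO arrays above all Het arrays.

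The 5 genes of spindle assembly and cytokinesis were all lowest in KO replicate 1, by a median of 0.34 below the other arrays (-0.34). Prc1, which bundles the microtubules of the central spindle, had 566, 801 and 967 in KO and 772, 787 and 815 in Het metastases. Tpx2, the activator of Aurora A, had 582, 831 and 875 in KO and 855, 804 and 823 in Het metastases. In both genes the 3 Het arrays lay between KO replicate 1 and KO replicate 3. Nusap1, a spindle microtubule binder, the cytokinesis gene Ect2 and the cleavage furrow scaffold Anln were at -0.34, -0.29 and -0.25 in KO replicate 1 against the other arrays.

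Top2a and Mki67, both common markers of proliferation, differed in their pattern. Top2a, the topoisomerase that untangles chromosomes, had 2876, 2637 and 2976 in KO and 2717, 2739 and 2602 in Het metastases. That range of 0.19 on the log2 scale was the narrowest of the 28, against a median of 0.55 over the members. Mki67, which coats mitotic chromosomes, had 2472, 3119 and 3695 in KO and 4225, 3914 and 3725 in Het metastases. Its KO arrays were all below its Het arrays, but KO replicate 3 and Het replicate 3 nearly met. KO minus Het was -0.37 on the log2 scale (SE 0.27; adjusted p by limma 0.9999), the lowest value of the 28. Foxm1, which switches on many of these genes, was dim, with 66.8, 127 and 176 in KO and 99.6, 77.0 and 126 in Het metastases on its brightest probe set. Its groups overlapped, and KO replicate 1 was again the lowest array.

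Between the genotype groups no member passed the test. When the Het arrays entered limma as 1 averaged sample beside 3 KO samples, 0 of 28 members had an adjusted p under 0.05 (percent of all 13576 probe sets called, 0%), and 1 member, Cenpe, had an unadjusted p under 0.05, in the higher direction (0.88% of all genes), and none in the lower (0.729%). Over all probe sets 2.22% had an unadjusted p under 0.05. When all 6 arrays were entered separately, no member passed either (0%), the lowest member adjusted p by limma being 0.36, and 10.3% of all probe sets had an unadjusted p under 0.05. There, Cenpe and Birc5 had an unadjusted p under 0.05 as higher in KO (4.29% of all genes) and Mki67 as lower (5.28%). Their adjusted p by limma was 0.36 for Cenpe, 0.40 for Birc5 and 0.48 for Mki67. The median member differed by -0.09, against -0.04 for all genes, with 11 of 28 higher in KO (43.4% of all genes) and 17 lower (56.6%). Every KO array was above every Het array for Cenpe and Birc5 (2 of 28; 5.83% of all genes), and below for Bub1b, Kif23, Kif2c and Mki67 (4 of 28; 10.5% of all genes). These shares are near those of all genes, and Cenpe passed the filter on dim signals only through its KO arrays. Each gene is counted here by its brightest probe set, and the dimmest kept probe set of Kif2c separated in the other direction. The smallest p that an exact test could give for 3 against 3 arrays is 0.1.

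**Figure D4:**
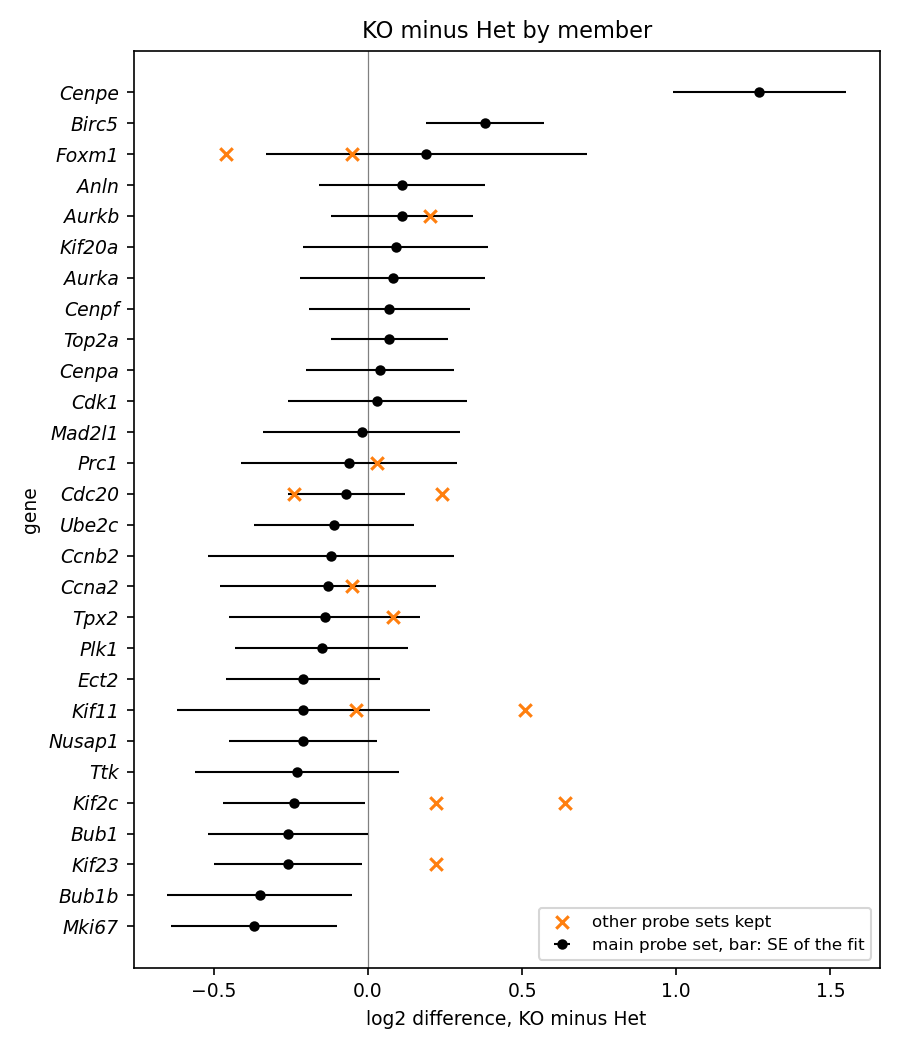
Log2 difference of KO minus Het for each of 28 members, with black points for the brightest probe set, bars for the SE of the fit with the averaged Het sample, and crosses for other kept probe sets. Most bars cross 0, and the probe sets of Kif2c, Kif11, Foxm1 and Kif23 lie on both sides of 0.

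Leaving out KO replicate 1 turned the sign of the median difference, whereas leaving out KO replicate 2 or 3 gave -0.17 or -0.20. KO replicate 1 is the array where the members were low, with 25 of 28 below both other KO arrays. Leaving it out raises the KO mean of those 25, so the values below follow in part from the choice of that array. The median difference became 0.09 (0.07 without Het replicate 1 as well, a setting chosen after seeing the data), with 19 of 28 members higher and 9 lower in KO, against 56.7% of all genes lower. The 2 KO arrays left were then both above all Het arrays for 8 members (28.6%; 9.61% of all genes), namely Ccnb2, Cdk1, Aurka, Kif20a, Cenpe, Birc5, Foxm1 and Anln. They were both below for the same 4 genes as before (14.3%; 16.1% of all genes). Among those 8, the log2 difference without KO replicate 1 was 0.16 for Ccnb2, 0.21 for Cdk1, 0.25 for Aurka, 0.25 for Kif20a, 0.24 for Anln and 0.53 for Foxm1, beside 1.30 for Cenpe and 0.41 for Birc5. No member had a limma adjusted p under 0.05 in that fit either.

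Probe sets of the same gene often disagreed on the genotype difference. Of 9 members with several kept probe sets, 7 had differences of both signs. Kif2c had -0.24 on its brightest probe set, whose name ends in x_at, and 0.22 and 0.64 on the other kept ones. That ending marks probe sets with probes that may also match other transcripts, and it is also that of the brightest probe sets of Cdc20, Aurkb, Incenp, Ncaph and Pold1. Kif11 had -0.21, -0.04 and 0.51. The dimmest kept probe sets of Kif2c and Kif11 were both lowest on Het replicate 1 (88.0 and 128), the array with the raised 3' to 5' ratios, whose part was not tested. Kif23 had -0.26 and, on a probe set at 81.4 to 129, 0.22. Foxm1 had 0.19, -0.46 and -0.05. The 3 probe sets of Cdc20 differed by -0.07, 0.24 and -0.24, and its dimmest kept one had a signal of 106 in KO replicate 1, against 283 to 436 elsewhere. Both Aurkb probe sets were higher in KO (0.11 and 0.20), and both of Ccna2 lower (-0.13 and -0.05). The low level of KO replicate 1 was seen on 25 of the 41 kept member probe sets (61%), against 21.8% of all probe sets kept.

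**Figure D5:**
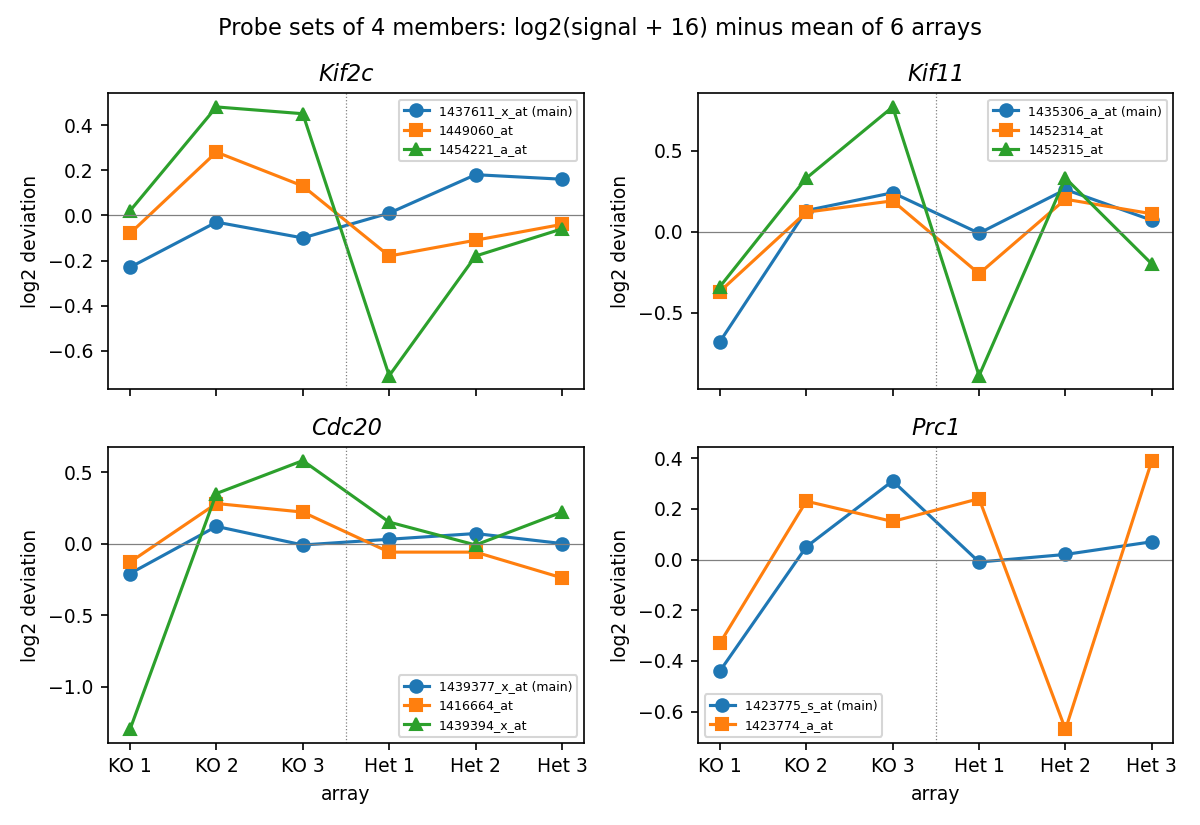
Log2(signal + 16) of each kept probe set of Kif2c, Kif11, Cdc20 and Prc1 on each array, relative to that probe set's mean over the 6 arrays. Lines join the values of 1 probe set only to help the eye. For Kif2c the brightest probe set lies below its mean on all 3 KO arrays, while the others are above their mean in KO 2 and KO 3.

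Genes that work beside the members were read from 3 further lists. Of 73 other mitosis genes, 53 were kept and 0 passed in either direction (lowest adjusted p by limma 0.36 when arrays were entered separately). KO replicate 1 was the lowest array for 29 of the 53 (54.7%), and the median gene lay at -0.19 there. The genes with the largest moderated t were Pimreg, Cenpm, Racgap1 and Ncaph. Pimreg, a mitotic regulator, had 251, 233 and 184 in KO and 111, 128 and 123 in Het metastases, and Cenpm, a kinetochore subunit, had 333, 336 and 216 in KO and 152, 167 and 156 in Het metastases. Both had every KO array above every Het array and were high, not low, in KO replicate 1, with log2 differences of 0.79 (SE 0.30) and 0.81 (SE 0.34). Every KO array was above every Het array for 3 of the 53 genes (5.83% of all genes) and below for 2 (10.5%). Genes named for a large t are apt to separate in this way. Racgap1, a partner of Kif23 in cytokinesis, differed by 0.54 (SE 0.33), and the condensin subunit gene Ncaph by -0.44 (SE 0.25).

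Of 20 regulators of G2/M transcription, 17 were kept and 0 passed. Mybl2, which encodes B-Myb, had 173, 253 and 372 in KO and 327, 291 and 337 in Het metastases. KO replicate 1 was its lowest array, at -0.80 against the other 5. Rbl1, a pocket protein of the DREAM family, had every KO array (500, 583 and 569) below every Het array (611, 636 and 642), with a log2 difference of -0.19 (SE 0.24). The KO arrays were all below the Het arrays for 4 of the 17, Plk3 among them (10.5% of all genes), and all above for none (5.83%). Plk3 and the CDK inhibitor gene Cdkn1a differed by -0.46 (SE 0.33) and 0.42 (SE 0.41).

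DNA replication genes, the nearest group in the cell cycle, showed the same low array to a smaller degree. KO replicate 1 was lowest for 20 of 39 genes kept (51.3%), and the median gene lay at -0.17 against the other 5 arrays, beside -0.35 for the G2/M and mitosis genes. Whether these lists differ was not tested. None of the 39 passed, and their median difference of KO minus Het was -0.02. Pold1, the catalytic subunit of DNA polymerase delta, had the largest moderated t, with 374, 424 and 390 in KO and 535, 570 and 494 in Het metastases, or -0.41 on the log2 scale (SE 0.24; adjusted p by limma 0.9999). The licensing factor gene Cdt1, Pole and Dnmt1 followed, at -0.32 (SE 0.21), -0.36 (SE 0.30) and -0.23 (SE 0.21).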

How the data were processed

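The values were linear intensities that the authors deposited in 1 table of 22690 probe sets for 6 arrays; MAS5 and Affymetrix Expression Console are named in the submitters' processing notes, with versions not given in the sources used here. Detection calls were not used here, so a dim probe set may be at background. Signals were taken as log2(signal + 16), which understates changes of dim genes. The 64 control probe sets and the 40% with the lowest mean (under a log2 mean of 6.56) were left out, which kept 13576.

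KO minus Het was tested on 3 KO samples and 1 mean of the Het arrays with limma 3.58.1 in R 4.3.3 (lmFit, eBayes with a trend), with Benjamini-Hochberg adjustment over all probe sets kept and a threshold of 0.05. This takes the spread of the single Het sample to equal that of the KO samples. Each SE comes from this fit, and each SD from 3 arrays. The labels name no animals, so p-values measure only the spread between samples, which may be technical. In the fit with the averaged Het sample, that spread comes from the 3 KO samples alone, KO replicate 1 among them. The number of arrays limits the precision. The procedure was tested on simulated data in which all arrays were independent, so likeness among the Het arrays was not covered.

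Members are all named; from each other list up to 4 genes with the largest moderated t were named, and Mybl2. Incenp was added after its values were seen, to complete the passenger complex. Members and lists were chosen with earlier results of these data known. Symbols follow the platform annotation, and the symbols of all member probe sets matched RefSeq through the Entrez ID. Other settings tried were separate Het arrays, other pseudocounts and filters, quantile normalization, centring, the median over probe sets, and leaving out each array.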

Additional observations from a re-analysis of the deposited data

How the results depend on the processing

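No count of probe sets, members, other mitosis genes or DNA replication genes past the threshold moved from 0 under any alternative tried, whether by unit of replication, pseudocount, filter, scaling or array left out. In the limma fit with the averaged Het sample, 301 probe sets had an unadjusted p under 0.05, and with each array as a sample 1394 did. No paired analysis was possible because the KO titles carry no replicate number that the Het titles share. The number of members whose groups do not overlap was 6, and it ran from 5 to 7 with all arrays under the other settings. Leaving out an array can only keep or raise this count, which then ran from 7 to 12. The 12 came without KO replicate 1. There 9.61% of all genes were higher and 16.1% lower in KO without overlap, against 5.83% and 10.5% with all arrays. Shares over all genes are not given here for the other arrays left out. The motif count depends on the window, since CHR was found in 8 members within 150 bases before the start, against 19 in the whole window. Those 8 are 32% of the 25 members searched, against 9.24% of 27025 genes and 5.21% of the 6486 kept on the arrays. The median member of Het replicate 2 moved from 0.07 to 0.02 with the median over a gene's probe sets. The sign of the genotype difference turned for 14 of 28 members under 1 or more of the alternatives run for single members. With quantile normalization it turned for Mad2l1 alone (0.00). Over the 6 fits that each leave out 1 array, these differences ran from -0.29 to 0.16 for Ccnb2, from -0.27 to 0.11 for Ccna2, from -0.11 to 0.21 for Cdk1, from -0.00 to 0.25 for Aurka, from -0.18 to 0.17 for Mad2l1, from -0.14 to 0.02 for Cdc20, from -0.38 to 0.08 for Kif11, from -0.01 to 0.25 for Kif20a, from -0.05 to 0.11 for Cenpa, from -0.03 to 0.18 for Cenpf, from -0.24 to 0.04 for Tpx2, from -0.08 to 0.53 for Foxm1, from -0.22 to 0.04 for Ube2c and from -0.23 to 0.15 for Prc1. Het replicate 2 was the array whose loss turned Ube2c and Mad2l1, besides KO replicate 1. The other 14 kept their sign in those runs. The median over probe sets was not run for single members, and the kept probe sets of Kif2c and Kif23, both among these 14, differ in sign. Signal over background was not known, which limits the dim members Foxm1 and Cenpe most.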
